A study of Mus musculus with 10 samples.

Results

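Collagens and laminins are secreted proteins that build the extracellular matrix, and the genes described here are the 59 protein-coding genes of the count table that encode them or their closest matrix partners. They were chosen by name from the 54532 genes of the table: every collagen alpha chain (Col, a number, a and a number), every laminin alpha, beta or gamma chain (Lama, Lamb and Lamc), the nidogens Nid1 and Nid2, perlecan (Hspg2) and fibronectin (Fn1). The rule reads gene names and not values. Of the 59 genes, 22 were grouped as basement membrane genes, 7 as fibrillar collagens, 8 as cartilage-type collagens and 22 as the remaining members, which include fibronectin. The fibrillar class held Col24a1 and the chains of types I, III and V. The fibril-forming chains Col2a1, Col11a1, Col11a2 and Col27a1 were placed in the cartilage-type class instead.

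Brain RNA was sequenced from 10 mice, 6 given FTY720 and 4 given placebo. All 10 mice were Slc20a2-HO, that is, homozygous for a knockout of the phosphate transporter gene Slc20a2 by the gene-trap allele tm1a(EUCOMM)Wtsi, so the placebo mice carried it too and no wild type library was analysed here. FTY720, a modulator of sphingosine-1-phosphate receptors, was injected at 0.5 mg/kg in DMSO 3 times a week over 12 weeks, starting at 1.5 months of age, and placebo mice received DMSO. The mice were perfused before part of each brain was taken for RNA, and the comparison asked what FTY720 changed in the brain of a mouse that develops calcification. The mouse names hold a group letter, a digit that is 1 or 3, and a number. The labels do not say what the digit stands for: it was 1 in F1-622, F1-624 and F1-918 of the FTY720 group and in P1-623 of the placebo group, and 3 in F3-609, F3-612, F3-908, P3-612, P3-904 and P3-907.

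In the brain, basement membranes lie around the blood vessels and beneath the meninges. Type IV collagen chains assemble there into a network that is joined to the laminin network by nidogens and perlecan. Collagen chains work in trimers, which in some types, type IV among them, join different partner chains. Endothelial cells, mural cells, fibroblasts and astrocytes are known to contribute to this matrix. Fibrillar collagens of types I, III and V are made mainly by fibroblasts of the meninges and of larger vessels, whereas type II, IX and XI chains are best known from the fibrils of cartilage. In RNA from whole tissue, fewer cells of a type and less RNA per cell cannot be told apart.

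The libraries held 14772745 to 18303981 counts, of which the 59 genes took 0.0622% to 0.0861%. Slc20a2 had 89 to 294 counts per library, and no wild type level stands beside it. It too divided by digit, at 6.31 to 9.43 CPM (counts relative to the scaled library size) with digit 1 and 11.5 to 17.0 CPM with digit 3, a log2 fold change of 0.73 ± 0.15 (adjusted p = 0.00463; edgeR, Benjamini-Hochberg). Markers of neurons and of glia had summed levels of 4573 to 5388 and 5400 to 6811 CPM. The libraries stood apart by digit rather than by treatment: the summed level of 10 cerebellar granule cell markers was 257 to 284 CPM in the 4 digit 1 libraries and 1407 to 1535 CPM in the 6 digit 3 libraries, and that of 7 Purkinje cell markers was 686 to 812 CPM and 1421 to 2030 CPM. Most treatment counts below are therefore also given with the digit in the model and for the 6 digit 3 libraries by themselves, as are single genes where the value moved most.

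Sequence before a start site is shown for the 5 collagen genes on which the results below turn and whose upstream window lies clear of exons. Each is up to 250 bases before a RefSeq start, 5′ to 3′ on the gene's own strand, in build GRCm38.p6. Capitals mark the GC box (GGGCGG or CCGCCC), the CCAAT box (CCAAT or ATTGG) and the TATA box (TATAAA or TTTATA). Col11a2, Col13a1 and Col7a1 were lower with FTY720, and Col18a1, Col27a1 and Col7a1 were higher with digit 3. The windows are chr17:34038888-34039137 on the plus strand for Col11a2, chr10:61979109-61979358 on the minus strand for Col13a1, chr9:108953336-108953585 on the plus strand for Col7a1, chr10:77166549-77166780 on the minus strand for the upstream start of Col18a1, and chr4:63215162-63215411 on the plus strand for Col27a1. The Col27a1 window precedes an internal RefSeq start and lies inside the gene as the files draw it, outside annotated exons.
Col11a2: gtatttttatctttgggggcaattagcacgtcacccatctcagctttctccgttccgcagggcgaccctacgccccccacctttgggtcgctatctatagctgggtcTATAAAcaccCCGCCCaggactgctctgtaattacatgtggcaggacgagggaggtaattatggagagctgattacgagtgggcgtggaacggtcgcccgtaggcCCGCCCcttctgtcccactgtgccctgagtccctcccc
Col13a1: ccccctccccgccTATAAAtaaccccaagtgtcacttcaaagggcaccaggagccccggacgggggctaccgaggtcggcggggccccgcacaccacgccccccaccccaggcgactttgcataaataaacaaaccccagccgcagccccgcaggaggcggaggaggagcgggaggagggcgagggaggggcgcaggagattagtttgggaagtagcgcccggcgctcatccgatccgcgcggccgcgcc
Col7a1: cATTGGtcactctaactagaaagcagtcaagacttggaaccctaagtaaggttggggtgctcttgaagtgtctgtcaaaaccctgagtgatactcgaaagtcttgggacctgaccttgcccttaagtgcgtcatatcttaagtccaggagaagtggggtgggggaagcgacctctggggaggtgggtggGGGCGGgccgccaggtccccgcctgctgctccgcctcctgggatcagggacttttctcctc
Col18a1: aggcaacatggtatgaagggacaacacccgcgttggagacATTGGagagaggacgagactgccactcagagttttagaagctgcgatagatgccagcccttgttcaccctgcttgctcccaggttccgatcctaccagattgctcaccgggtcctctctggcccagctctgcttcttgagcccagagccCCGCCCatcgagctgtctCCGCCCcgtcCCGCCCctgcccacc
Col27a1: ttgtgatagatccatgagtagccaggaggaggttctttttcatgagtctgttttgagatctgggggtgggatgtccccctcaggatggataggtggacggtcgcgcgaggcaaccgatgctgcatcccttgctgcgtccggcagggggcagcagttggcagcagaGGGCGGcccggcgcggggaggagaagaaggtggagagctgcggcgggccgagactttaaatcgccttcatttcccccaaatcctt
The Col11a2 window holds a TATA box and 2 GC boxes, that of Col13a1 a TATA box alone, that of Col7a1 a CCAAT box and a GC box, that of Col18a1 a CCAAT box and 3 GC boxes, and that of Col27a1 a GC box. Over all 32851 RefSeq windows of 250 bases, 32.7% held a GC box, 33.8% a CCAAT box and 12.4% a TATA box on either strand. Windows were found for 42 of the 59 genes, and of their 46 windows 26 held a GC box, 15 a CCAAT box and 5 a TATA box. A match describes letters in the window and is no evidence that a factor binds there.

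The family spanned a wide range of levels per length. Col6a1, a chain of the beaded filaments of type VI collagen, was the most abundant member at 13.4 ± 3.03 FPKM (fragments relative to gene length and library total, as deposited; SD, n = 10), and the least abundant was another type VI chain, Col6a6, at 0.0739 ± 0.0243 FPKM. In the basement membrane class the main vascular type IV chains led together with Lamb2, a laminin beta chain: Col4a2 stood at 7.25 ± 1.12 FPKM, Lamb2 at 4.68 ± 0.830 and Col4a1 at 4.64 ± 0.496. In the fibrillar class Col5a1 of type V was highest at 2.90 ± 0.423 FPKM, above Col1a1 (1.74 ± 0.503) and Col1a2 (1.73 ± 0.244), the chains of type I collagen, whose levels did not differ beyond their spread. The cartilage-type class was led by the type IX chains Col9a3 (5.24 ± 1.11 FPKM) and Col9a2 (2.56 ± 0.806), with the type XI chain Col11a2 between them at 3.49 ± 0.849. Type II collagen itself, the main cartilage collagen, was at 0.242 ± 0.0564 FPKM (Col2a1), and Col10a1, the collagen of hypertrophic cartilage, had 1 to 13 counts per library and did not pass the filter on low counts, so that 58 of the 59 genes were tested. Col25a1, a neuronal membrane collagen, stood at 4.33 ± 0.854 FPKM, Col16a1, a fibril-associated collagen, at 3.35 ± 0.727 and Fn1 at 3.05 ± 0.854.

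**Figure D1:**
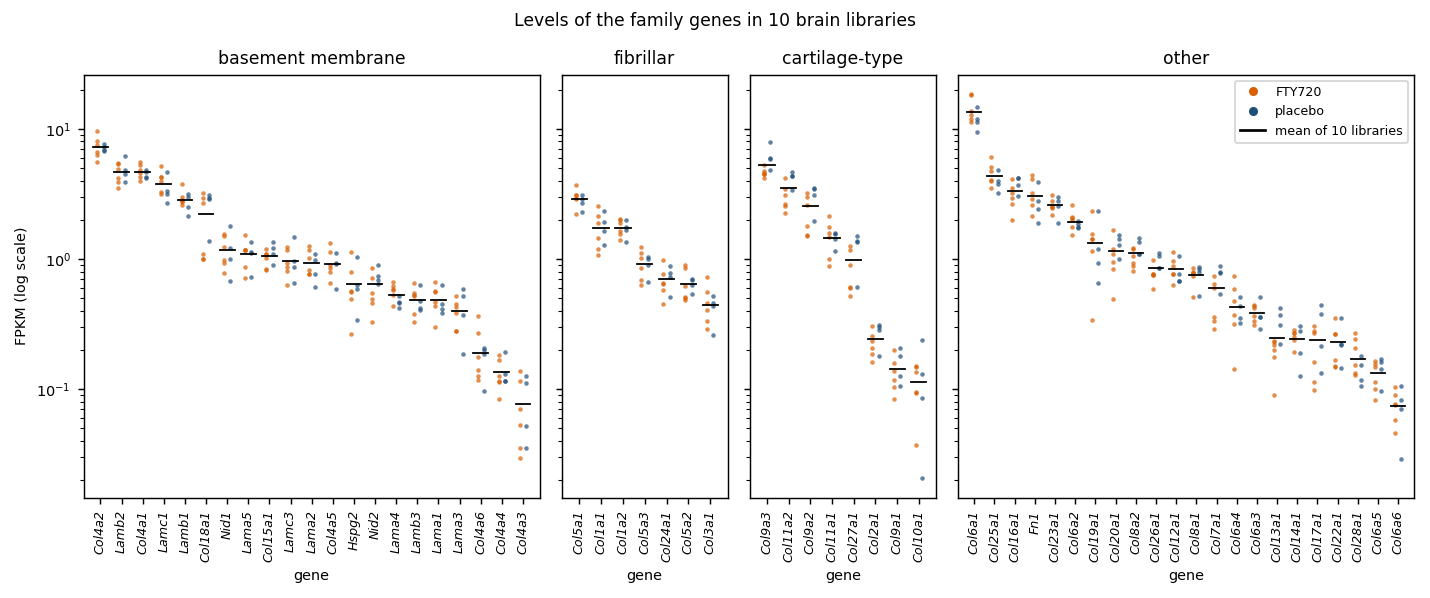
Deposited FPKM (log axis) of the family genes reported here in each of 10 libraries, by class, with FTY720 and placebo libraries as separate points and the mean over the 10 libraries as a bar. Col6a1 stands highest at 13.4 FPKM, Col4a2 leads the basement membrane class and Col9a3 the cartilage-type class.

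Partner chains were far from equal in RNA level. Per length, Col4a2 exceeded Col4a1 in every library, by 1.39 to 1.75 times, and Col6a1 exceeded its partners Col6a2 by 5.51 to 9.33 times and Col6a3 by 22.3 to 55.5 times. Among the chains of type IX collagen, Col9a3 exceeded Col9a2 by 1.40 to 2.97 times and Col9a1 by 26.5 to 56.4 times in all 10 libraries. By contrast Col1a2 and Col1a1 lay close together, at ratios of 0.722 to 1.55, and the laminin chain Lamb2 exceeded Lamb1 by 1.31 to 2.87 times. The laminin gamma chain Lamc1 exceeded Lamc3 by 3.15 to 4.93 times. FPKM values depend on the gene length used, so a ratio of 2 genes is only as good as those lengths. The lengths were 4380 bases for Col6a1 and 8326 for Col6a2, and 6563 for Col1a1 and 12426 for Col1a2. In CPM, which use no length, Col1a2 exceeded Col1a1 in every library.

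Within the 6 digit 3 libraries, 14 pairs of partner chains were correlated (log2 CPM), and for Pearson's r none had an adjusted p under 0.05 by the exact permutation test, while 5 had an unadjusted one. The closest pair was Lamb1 and Lamc1, laminin beta and gamma chains of the same trimers (r = 0.889, exact permutation p = 0.0139, adjusted 0.0972; rho = 0.943, exact p = 0.0167, adjusted 0.117), with r = 0.692 after the 2 libraries farthest out were removed. Col4a1 and Col4a2 gave r = 0.823 (exact permutation p = 0.0444, adjusted 0.124; rho = 0.771, exact p = 0.103, adjusted 0.206), and r = 0.686 without 2 libraries. Col9a2 and Col9a3 gave r = 0.857 (exact permutation p = 0.0111, adjusted 0.0972; rho = 0.83, exact p = 0.0583, adjusted 0.163), and r = 0.679 without 2 libraries. For the third type IX chain, Col9a1, which had only 6 to 18 counts per library, the pair with Col9a2 gave r = 0.118 (exact permutation p = 0.822, adjusted 0.885; rho = 0.143, exact p = 0.803, adjusted 0.865).

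The family showed few differences between FTY720 and placebo. Of the 58 genes tested, 4 had an unadjusted p under 0.05, the study's criterion, and all 4 were lower with FTY720: Col11a2, Col9a3, Col13a1 and Col7a1. Among the 14784 protein-coding genes tested, 2.61% passed the same criterion and 1.47% did so with a lower level. No gene passed an adjusted p of 0.05 (quasi-likelihood test of edgeR, Benjamini-Hochberg), the smallest adjusted p being 0.999918 among the 58 genes as among all 17665 tested. DESeq2 likewise gave 4 of the 58 genes at an unadjusted p under 0.05, beside 3.05% of protein-coding genes, and 0 of the 58 after adjustment. The median log2 fold change of the 58 genes was 0.01, beside 0.00 (0.00465) over all protein-coding genes, with 30 genes above 0 and 28 below. After removal of GC content and gene length trends from each library the split was 1 higher (Col6a1) and 1 lower (Col11a2) in place of 0 and 4. In that fit 343 protein-coding genes passed in place of 386. Leaving out single mice moved the count from 1 (without P3-612) to 7 (without F1-918). Over all protein-coding genes 209 and 552 passed in those fits, beside 386 with all mice. In none of the 58 genes did the values of the groups stand clear of each other, beside 0.839% of protein-coding genes.

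The cartilage-type collagens gave 2 of the 4 lower genes, and 6 of the 7 tested had a log2 fold change below 0, with a median of -0.41, where 1.47% of protein-coding genes were called lower and 7233 of 14784 lay below 0. Counts of 6 of 7 below 0 and 2 of 7 called were also found with the digit in the model, at a median of -0.27 and beside 8.45% of protein-coding genes lower, and in the digit 3 libraries, at a median of -0.36 and beside 5.0% lower. These settings use the same libraries. Col11a2 (ENSMUSG00000024330, chromosome 17 from 34039437 to 34066685, plus strand), a chain of the type XI collagen that sets fibril width, was at 32.2, 30.1, 23.3 and 30.2 CPM in the placebo mice P1-623, P3-612, P3-904 and P3-907. With FTY720 it ranged from 15.8 over a median of 19.8 to 28.8 CPM. P3-904 fell among the FTY720 mice, below both F1-918 and F3-612 (23.8 CPM), so the groups overlapped. The log2 fold change was -0.47 ± 0.17 (standard error; edgeR p = 0.0168, two-sided exact permutation p = 0.0286), -0.53 with the digit as a covariate (edgeR p = 0.0046) and -0.55 in the digit 3 libraries alone (edgeR p = 0.0162). Without P1-623 the edgeR p was 0.0533.

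Col9a3 (ENSMUSG00000027570, chromosome 2 from 180597790 to 180622189, plus strand), a chain of the type IX collagen that coats cartilage fibrils, was at 23.1, 30.9, 18.7 and 23.2 CPM in P1-623, P3-612, P3-904 and P3-907. With FTY720 it lay between 16.2 and 20.6 CPM with a median of 17.8. One FTY720 mouse, F1-918, stood above the lowest placebo mouse, P3-904, and the others stood below all placebo mice. The log2 fold change was -0.41 ± 0.14 (standard error; edgeR p = 0.0112, exact permutation p = 0.00952), -0.42 with the digit as a covariate (edgeR p = 0.00938) and -0.47 in the digit 3 libraries alone (edgeR p = 0.0355). It rested in part on P3-612, without which it was -0.27 and the edgeR p was 0.0625. Exons of Tcfl5 on the opposite strand share 6.07% of the exon bases of Col9a3, and the strand setting of the counting is not given in the sources used here.

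The other cartilage-type chains did not pass the test. With FTY720 the level of Col9a2, the partner of Col9a3, was 7.09 ± 2.41 CPM (SD, n = 6), and placebo mice had 9.44 ± 2.33 CPM (SD, n = 4), for a log2 fold change of -0.41 ± 0.26 (exact permutation p = 0.181). With the digit in the model the value of Col9a2 was -0.51 ± 0.24, and in the digit 3 libraries -0.54 ± 0.28. Col27a1, a collagen of developing cartilage that differed between the digits (below), had a log2 fold change of -0.53 ± 0.30 (exact permutation p = 0.181), but of -0.27 ± 0.13 with the digit in the model and -0.35 ± 0.16 in the digit 3 libraries, where the groups did not overlap. Its unadjusted edgeR p fell under 0.05 with the gene length trend removed and without F3-609 or P1-623 (-0.74 without P1-623). For Col9a1 the log2 fold change was -0.21 ± 0.33. For Col11a1, the partner of Col11a2, it was 0.04 ± 0.23, 0.16 ± 0.15 with the digit in the model and 0.26 ± 0.14 in the digit 3 libraries. There the Col11a1 values did not overlap either, but FTY720 was the higher group. In that comparison of 3 mice with 3, 7 of the 58 genes did not overlap, and a full separation has an exact permutation p of 0.1. The summed level of the 8 cartilage-type genes, given as a description, was 62.5 to 89.6 CPM with FTY720 (median 81.3) and 91.1 to 112.6 CPM with placebo, so every FTY720 library lay below every placebo library. In the digit 3 libraries alone the sums were 77.6 to 89.6 CPM and 91.1 to 112.6 CPM. Of 12 other markers of cartilage and bone, 7 could be tested and none had an unadjusted p under 0.05 in edgeR or DESeq2. With the digit in the model 1 of the 7 was lower, 14.3% beside 8.45% of protein-coding genes, and none passed in the digit 3 libraries. Their sum was 37.4 to 45.7 CPM with FTY720 and 40.4 to 45.4 CPM with placebo.

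The remaining lower genes are a membrane collagen and the collagen of anchoring fibrils. Col13a1 (ENSMUSG00000058806, chromosome 10 from 61838236 to 61979108, minus strand), a transmembrane collagen known from the neuromuscular junction, was low throughout, with 7 to 30 counts per library. It was at 1.97, 1.72, 1.04 and 1.46 CPM in P1-623, P3-612, P3-904 and P3-907 and between 0.418 and 1.07 CPM with FTY720 (median 0.975). The lowest placebo value lay just inside the FTY720 range and the other placebo values above it. The log2 fold change was -0.80 ± 0.30 (standard error; edgeR p = 0.0214, exact permutation p = 0.0143), -0.88 with the digit as a covariate (edgeR p = 0.0116) and -0.79 in the digit 3 libraries alone (edgeR p = 0.0933). Without P3-612 the edgeR p was 0.0559 and without P1-623 it was 0.0767.

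Col7a1 (ENSMUSG00000025650, chromosome 9 from 108953586 to 108984875, plus strand), which forms the anchoring fibrils of epithelial basement membranes, was at 5.63, 8.26, 8.03 and 9.21 CPM in P1-623, P3-612, P3-904 and P3-907. With FTY720 it was at 2.98, 3.48 and 3.72 CPM in the digit 1 mice and 6.62, 7.68 and 6.28 CPM in the digit 3 mice. The digit 1 mice were the lower ones in both groups, and within each digit every FTY720 mouse lay below every placebo mouse, although digit 1 holds only 1 placebo mouse. The log2 fold change was -0.60 ± 0.27 (standard error; edgeR p = 0.0471, exact permutation p = 0.0762), -0.44 with the digit as a covariate (edgeR p = 0.00878) and -0.30 in the digit 3 libraries alone (edgeR p = 0.0944). The call was lost when any of 6 mice was left out (F1-622, F1-624, F1-918, P3-612, P3-904 or P3-907), with log2 fold changes from -0.75 to -0.48 over the 10 mice. It was lost in 12 of 23 other settings in all, with an edgeR p of up to 0.186.

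**Figure D2:**
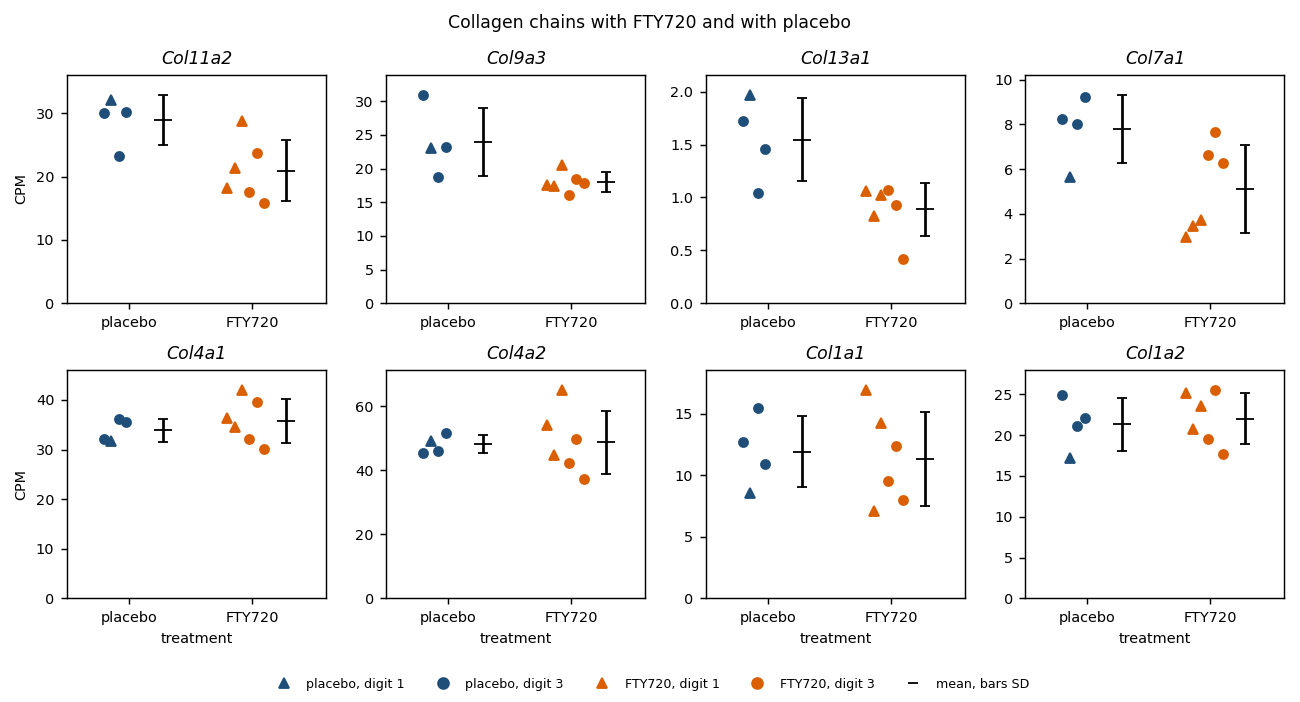
CPM in each library for the 4 genes lower with FTY720 (upper row) and for the main type IV and type I chains (lower row), with triangles for digit 1, circles for digit 3, and the mean and SD of each group beside the points. In the upper row most FTY720 points lie under the placebo points, while in the lower row the groups overlap.

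The vascular and fibroblast collagens did not pass the test. None of 22 basement membrane genes and none of the 7 genes of the fibrillar class had an unadjusted p under 0.05 in edgeR or in DESeq2, beside 2.61% and 3.05% of protein-coding genes. Nor did any with the digit in the model, beside 14.1%. In the digit 3 libraries 1 of the 22 (Nid2, lower) and none of the 7 did, beside 7.95%. Col4a1 averaged 35.8 ± 4.41 CPM (SD, n = 6) in FTY720 mice and 33.9 ± 2.27 CPM (SD, n = 4) in placebo mice, giving a log2 fold change of 0.08 ± 0.11. Col4a2, its partner in the vascular network, averaged 48.8 ± 9.83 and 48.1 ± 2.88 CPM, giving 0.02 ± 0.14. For the type I chains the log2 fold changes were -0.07 ± 0.25 (Col1a1) and 0.05 ± 0.14 (Col1a2), for Lamb2 -0.10 ± 0.16, for Col5a1 0.11 ± 0.14 and for Fn1, which is bound by integrins in the interstitial matrix, 0.21 ± 0.23. With the digit in the model or in the digit 3 libraries alone these values stayed between -0.17 and 0.36, except for Col1a1, which was at -0.38 ± 0.20 in the digit 3 libraries. For the less precise genes, such as Col1a1, an interval of 2 standard errors still holds a difference of the size seen in Col9a3. The basement membrane sum was 256 to 352 CPM with FTY720 and 248 to 331 CPM with placebo, and the fibrillar sum 69.8 to 92.4 and 64.1 to 87.1 CPM.

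Markers of the cells that make this matrix moved in part with the treatment. Of 12 endothelial markers, 3 were higher with FTY720 at an unadjusted p under 0.05 in edgeR (Pecam1, Ly6c1 and Slco1a4), 25.0% beside 2.61% of protein-coding genes. With the digit in the model 7 of the 12 were higher, 58.3% beside 14.1%, and in the digit 3 libraries 5 of the 12, 41.7% beside 7.95%. The list was not uniform: without the digit 9 of the 12 had a log2 fold change above 0 and 3 below, with Cldn5 at -0.19. The sum of the list was 212 to 329 CPM with FTY720 and 206 to 230 CPM with placebo, and in the digit 3 libraries it was 264 to 329 and 217 to 230 CPM, without overlap. With 3 mice on each side, any full separation has an exact permutation p of 0.1. Of 16 markers of leptomeningeal and perivascular fibroblasts, 3 were lower in edgeR (Slc6a13, Slc22a6 and Foxc1), beside 1.47% of protein-coding genes lower, and 2 in DESeq2. Fitted with the digit, 3 were lower, with Osr1 in place of Slc6a13, beside 8.45%, and in the digit 3 libraries only Osr1, 6.25% of the list beside 5.0%. Without the digit 5 of the 16 fibroblast markers had a log2 fold change above 0 and 11 below. Their sum was 132 to 159 and 146 to 174 CPM. Of 10 mural cell markers tested 1 was higher (Rgs5), beside 2.61% of protein-coding genes called. With the digit in the model 1 was higher, beside 14.1% of protein-coding genes, and 3 in the digit 3 libraries, beside 7.95%. Of the 10, 6 had a log2 fold change below 0 (median -0.09), and Rgs5 alone averaged 76.7 CPM with FTY720 and 52.8 CPM with placebo, so that it made up much of the list's sums of 129 to 177 and 124 to 140 CPM. Of 11 choroid plexus markers none passed in edgeR, in DESeq2 or in either digit setting, with sums of 527 to 734 and 468 to 799 CPM. Of 6 astrocyte and oligodendrocyte markers 1 was lower in each of these fits, 16.7% of the list. Beside it, 1.47% of protein-coding genes were lower in edgeR, 8.45% with the digit in the model and 5.0% in the digit 3 libraries. Without the digit 4 of the 6 had a log2 fold change below 0 and 2 above. Their sum was 5400 to 6044 and 5844 to 6811 CPM. In the digit 3 libraries that sum was 5400 to 5570 CPM with FTY720 and 6125 to 6811 CPM with placebo, without overlap, as for the cartilage-type sum. The sum of 7 skeletal muscle markers was 7.21 to 16.5 and 8.08 to 16.4 CPM, and no marker was at 0 in all libraries. These marker genes were named after their values were seen, and the part of these cells in the collagen differences was not tested.

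**Figure D3:**
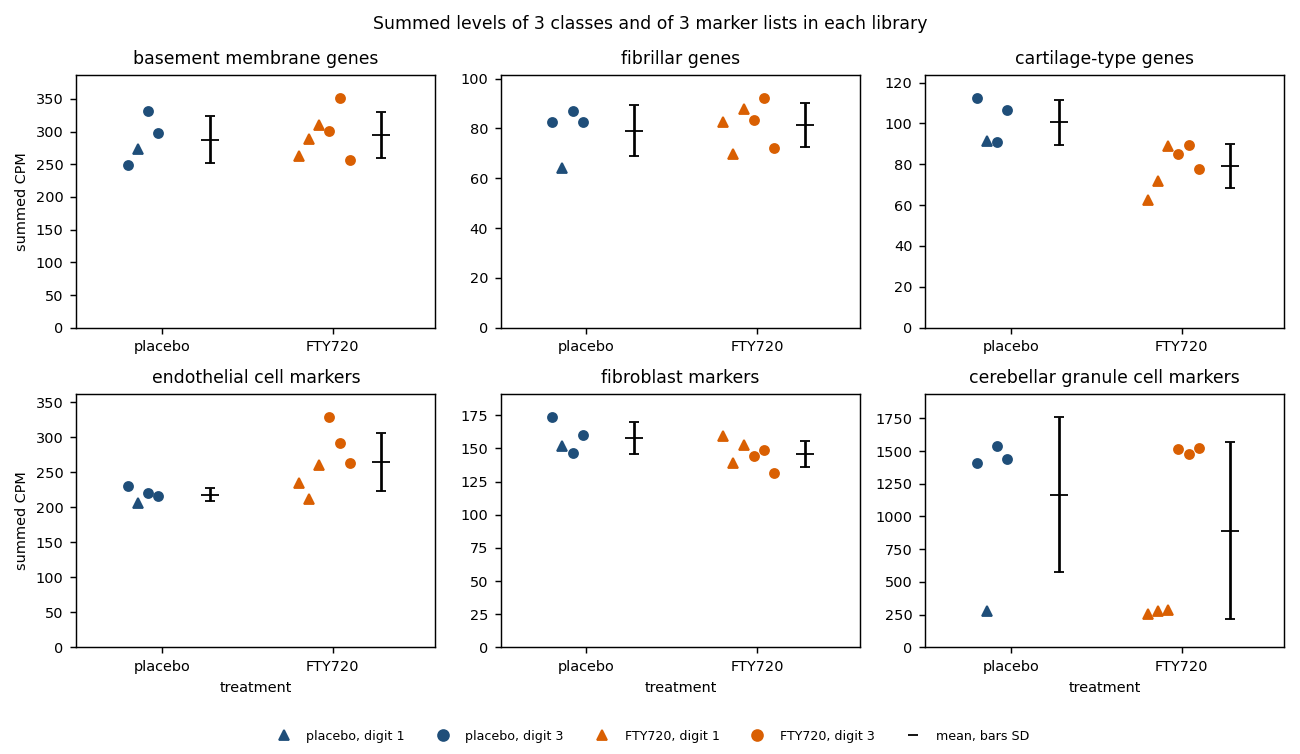
Summed CPM in each library for 3 gene classes (upper row) and for 3 marker lists (lower row), by treatment, with triangles for digit 1, circles for digit 3, and the mean and SD of each group beside the points. The cartilage-type sums of 62.5 to 89.6 CPM with FTY720 lie below those of 91.1 to 112.6 CPM with placebo, and the granule cell sums divide by digit and not by treatment. The cartilage-type sums include Col11a2 and Col9a3, the genes of this class called lower.

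The count of lower genes depended little on how the digit was handled. With the digit as a covariate 4 of the 58 genes had an unadjusted p under 0.05, the same Col11a2, Col9a3, Col13a1 and Col7a1, all lower, while 14.1% of protein-coding genes passed in that fit and 8.45% were lower. The smallest adjusted p was 0.354 (edgeR, Benjamini-Hochberg). In the 6 digit 3 libraries alone 4 of the 58 genes passed, all lower, beside 7.95% of protein-coding genes, with 5.0% lower. They were Col11a2, Col9a3, the laminin partner Nid2 and the collagen Col26a1, and of these Nid2 and Col26a1 were named with their values in view. The members called lower were thus 6.9% of those tested in each of these fits, above the share of protein-coding genes lower without a covariate and in the digit 3 libraries, and below it with the digit in the model. Whether the treatment difference itself depended on the digit was tested by an interaction term, for which 1 of the 58 genes had an unadjusted p under 0.05, Col3a1 of type III collagen, beside 1.64% of protein-coding genes, and none an adjusted one (smallest 0.999943; edgeR, Benjamini-Hochberg). Col3a1, named after its value was seen, was at 2.62 CPM in P1-623, the only placebo mouse with digit 1, and at 2.89, 5.52 and 7.23 CPM in the FTY720 mice with digit 1.

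Between the digits more members differed, at a share below the background. Of the 58 genes tested, 12 had an adjusted p under 0.05 with treatment as a covariate (edgeR, Benjamini-Hochberg), 20.7% of them, beside 30.0% of protein-coding genes. Higher with digit 3 were 9 genes, beside a background of 13.8%: Col18a1, Col17a1, Col4a3, Col27a1, Col7a1, Col4a5, Col5a3, Col11a1 and Fn1. Lower were 3 genes, Col6a1 and Col22a1 among them, beside a background of 16.2%. With the gene length trend removed the split was 6 higher and 7 lower, and 5094 protein-coding genes were called in place of 4441. In 10 of the 58 genes the values of the digits did not overlap, beside 15.0% of protein-coding genes. Within the FTY720 mice alone, 3 of each digit, 8 of the 58 genes passed (edgeR, Benjamini-Hochberg), beside 18.6% of protein-coding genes.

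The clearest difference was in Col18a1 (ENSMUSG00000001435, chromosome 10 from 77052178 to 77166548, minus strand), a basement membrane collagen and heparan sulfate proteoglycan from which endostatin is cut. It was at 7.09, 7.07, 7.79 and 9.76 CPM in F1-622, F1-624, F1-918 and P1-623 and from 19.2 over a median of 20.8 to 22.7 CPM in the 6 digit 3 mice. All digit 3 values lay above all digit 1 values, whatever the treatment. The log2 fold change was 1.38 ± 0.12, a 2.59-fold difference (adjusted p = 7.3e-06; edgeR, Benjamini-Hochberg), and 1.51 within the FTY720 mice. Between treatments the log2 fold change of Col18a1 was -0.37 ± 0.38 over all mice and -0.01 in the digit 3 mice.

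Col27a1 (ENSMUSG00000045672, chromosome 4 from 63214004 to 63334991, plus strand) followed the same division. It was at 7.87, 6.84, 8.09 and 8.06 CPM in F1-622, F1-624, F1-918 and P1-623 and between 12 and 20.04 CPM with digit 3 (median 17.1), without overlap. The log2 fold change was 1.02 ± 0.13 (adjusted p = 0.000235; edgeR, Benjamini-Hochberg), a 2.03-fold difference. Col7a1, listed by mouse above, had a log2 fold change of 0.86 ± 0.15 (adjusted p = 0.00164; edgeR, Benjamini-Hochberg), and its lowest digit 3 value of 6.28 CPM lay above its highest digit 1 value of 5.63. Col17a1, a transmembrane collagen of hemidesmosomes with only 8 to 45 counts per library, rose from 0.739 ± 0.163 CPM (SD, n = 4) with digit 1 to 1.84 ± 0.490 CPM (SD, n = 6) with digit 3, a call lost without P1-623.

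Smaller differences of about 1.5 times were found in a fibrillar, a cartilage-type and a remaining member. Col5a3, a type V chain, was at 4.86 ± 0.658 CPM (SD, n = 4) with digit 1 and 7.21 ± 0.737 CPM (SD, n = 6) with digit 3, a log2 fold change of 0.61 ± 0.14, while its partner Col5a1 had one of 0.26 ± 0.12 that did not pass (adjusted p = 0.120; edgeR, Benjamini-Hochberg). Col11a1 differed by 0.61 ± 0.15, from 14.5 ± 3.23 to 21.6 ± 3.17 CPM, with overlap of the digits, and lost its call with the gene length trend, or that and the GC content trend, removed. Its partner Col11a2 had a log2 fold change of -0.24 ± 0.16 that did not pass. Fn1 differed by 0.56 ± 0.17, from 29.2 ± 6.79 to 40.5 ± 9.43 CPM, also with overlap, and lost its call within the FTY720 mice and without any of F1-622, F3-609, F3-612 or P1-623, and in 7 of 23 other settings in all.

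Among the genes lower with digit 3 were a chain of the beaded filaments and a collagen of tissue junctions. Col6a1 (ENSMUSG00000001119, chromosome 10 from 76708792 to 76726168, minus strand) was at 82.1, 60.4, 81.2 and 66.0 CPM in F1-622, F1-624, F1-918 and P1-623 and between 42.4 and 56.2 CPM with digit 3 (median 50.9). The values did not overlap, and the log2 fold change was -0.48 ± 0.11 (adjusted p = 0.0071; edgeR, Benjamini-Hochberg). Its partners were not called: Col6a2, which lies nearby on chromosome 10, had a log2 fold change of -0.22 ± 0.13 and Col6a3 one of -0.05 ± 0.19. Col22a1, with 23 to 50 counts per library, was at 2.87 ± 0.463 CPM (SD, n = 4) with digit 1 and 1.63 ± 0.333 CPM (SD, n = 6) with digit 3, and its call was lost within the FTY720 mice.

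**Figure D4:**
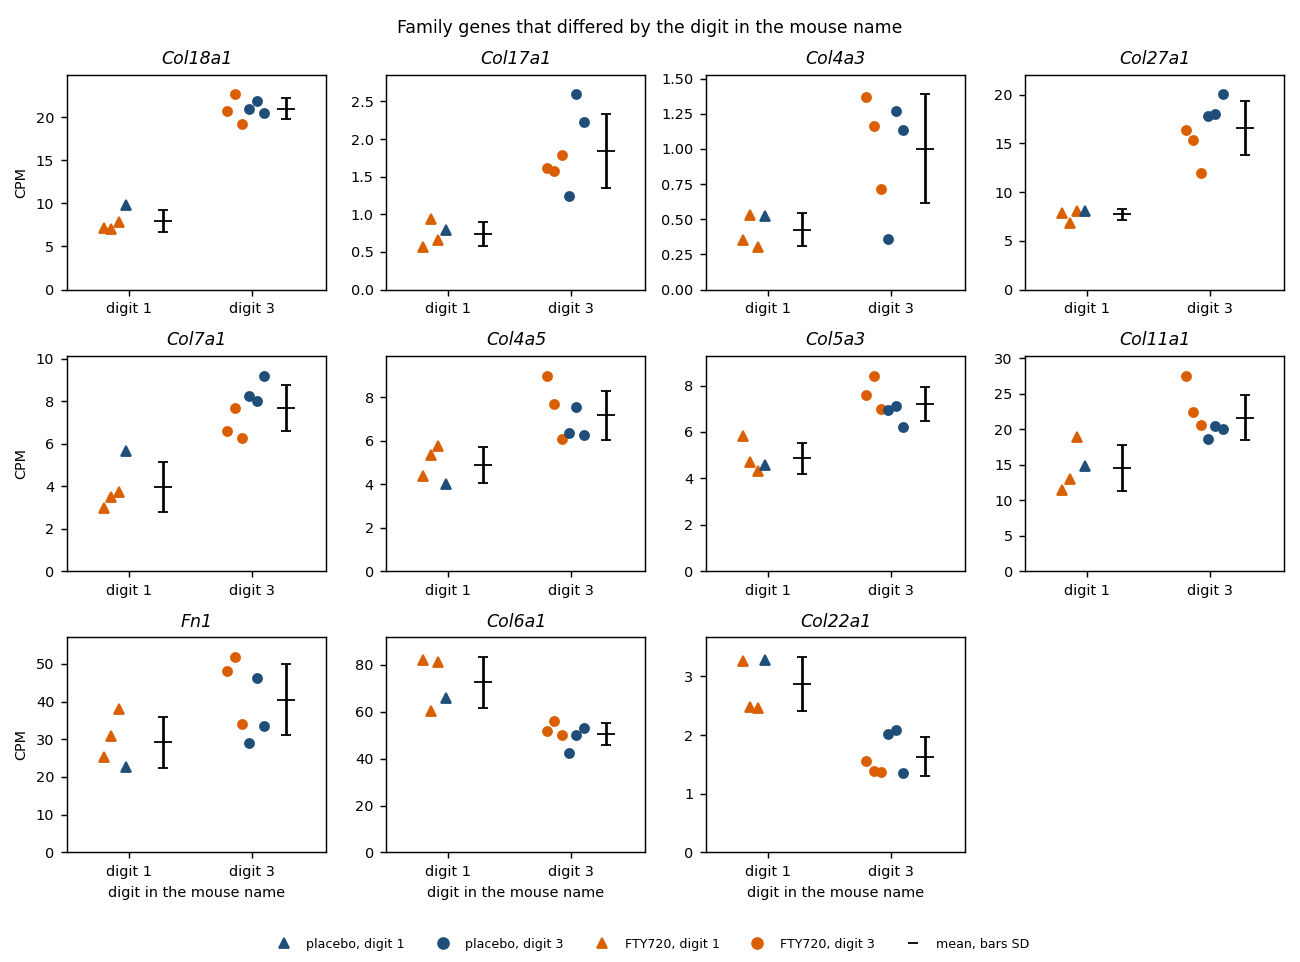
CPM in each library for genes with an adjusted p under 0.05 between the digits, ordered by log2 fold change, with placebo and FTY720 libraries in separate colours and the mean and SD of each digit beside the points. Col18a1 divides without overlap, at most 9.76 CPM with digit 1 and at least 19.2 CPM with digit 3, and the last panels, Col6a1 and Col22a1, show genes lower with digit 3.

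The 6 type IV collagen genes lie in 3 head-to-head pairs, which makes each pair's chains neighbours as well as partners. On chromosome 8 the starts of Col4a1 and Col4a2 are 21 bases apart, on chromosome 1 those of Col4a3 and Col4a4 are 72 apart and on chromosome X those of Col4a5 and Col4a6 are 1309 apart (GENCODE M21, the same coordinates as the files). The main vascular pair had log2 fold changes between the digits of -0.06 ± 0.11 (Col4a1) and -0.25 ± 0.13 (Col4a2), neither called (adjusted p = 0.716 and 0.163; edgeR, Benjamini-Hochberg). The minor pairs, known from kidney and other specialised basement membranes, all had positive values. Col4a5 was at 4.40, 5.36, 5.76 and 4.0 CPM in F1-622, F1-624, F1-918 and P1-623 and between 6.10 and 9.0 CPM with digit 3 (median 6.96), without overlap, a log2 fold change of 0.61 ± 0.16 (adjusted p = 0.0145; edgeR, Benjamini-Hochberg). Its call was lost within the FTY720 mice and without F3-609 or P1-623. Col4a6 had a log2 fold change of 0.86 ± 0.31 that narrowly missed the threshold (adjusted p = 0.0542; edgeR, Benjamini-Hochberg). Col4a3, with 5 to 23 counts per library, differed by 1.23 ± 0.42 (adjusted p = 0.0452; edgeR, Benjamini-Hochberg), a call that 15 of 22 other settings with a value did not keep, and shares 5.65% of its exon bases with C430014B12Rik on the opposite strand. Col4a4 had one of 0.52 ± 0.26 (adjusted p = 0.153; edgeR, Benjamini-Hochberg).

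By class, beside the 30.0% of protein-coding genes called, 4 of 22 basement membrane genes passed between the digits (18.2%), 1 of 7 fibrillar collagens (higher), 2 of 7 cartilage-type collagens (higher) and 5 of 22 remaining members (3 higher, 2 lower). The type I and type III collagens were not called: Col1a1 had a log2 fold change of -0.06 ± 0.26, Col1a2 one of 0.03 ± 0.14 and Col3a1 one of -0.03 ± 0.29. Over all 58 genes the median log2 fold change was 0.15, beside -0.03 over all protein-coding genes. All 10 granule cell markers and 6 of 7 Purkinje cell markers were higher with digit 3, as against 2 of 12 endothelial markers, and of 16 fibroblast markers 2 were higher and 1 lower (edgeR, Benjamini-Hochberg). The last 2 lists were thus near or under the share of protein-coding genes, at 16.7% higher beside 13.8% and at 18.8% called beside 30.0%. The sums of the endothelial and fibroblast markers overlapped between the digits (206 to 261 CPM with digit 1 and 217 to 329 CPM with digit 3 for the endothelial list, and 139 to 159 and 132 to 174 CPM for the fibroblast list). That of the skeletal muscle markers did not, at 13.3 to 16.5 CPM with digit 1 and 7.21 to 12.1 CPM with digit 3, with 1 of the 4 tested called lower. The part of these cell types in the collagen differences was not tested.

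**Figure D5:**
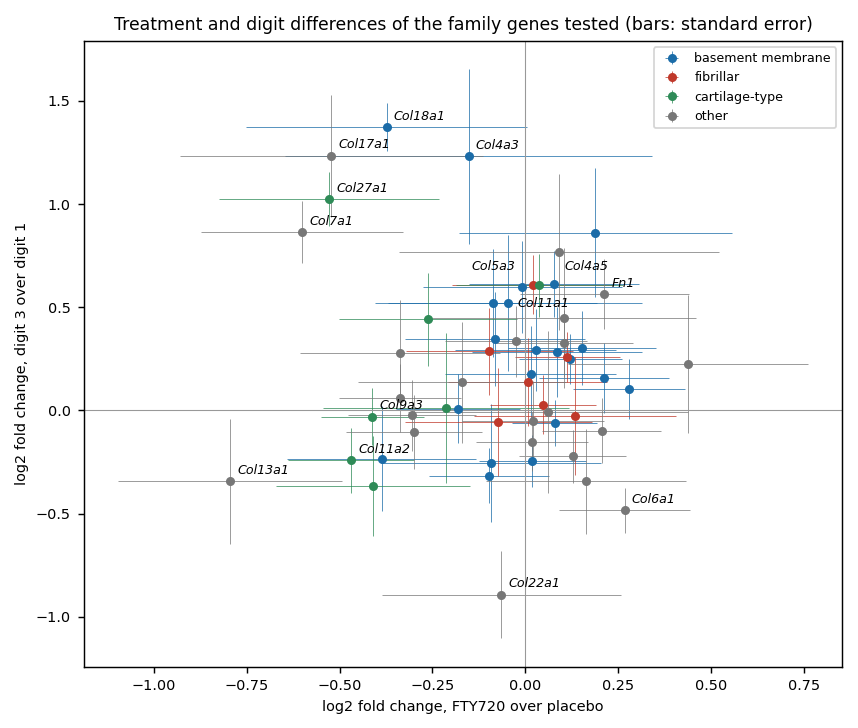
Log2 fold change of each tested family gene reported here for FTY720 over placebo (horizontal axis) and for digit 3 over digit 1 (vertical axis), with standard errors as bars, coloured by class. Both values come from the same 10 libraries; named genes passed either test, with Col13a1, Col7a1, Col11a2 and Col9a3 at the left and Col18a1 at the top.

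The proteins that modify, bind and cut these collagens were read from 4 lists. Of 32 genes of collagen synthesis and crosslinking, none had an unadjusted p under 0.05 for FTY720 in edgeR or in DESeq2, beside 2.61% and 3.05% of protein-coding genes. With the digit in the model 3 of the 32 did (1 higher, 2 lower; 9.38% beside 14.1%), and 3 in the digit 3 libraries (all lower; beside 5.0% lower). Between the digits 11 differed (6 higher, 5 lower), 34.4% beside 30.0%. Tll1 and Bmp1, proteinases that cut the C-terminal propeptide of fibrillar procollagens, were among them, at log2 differences of 1.99 ± 0.20 and 0.81 ± 0.10. Plod2, a lysyl hydroxylase, differed by 0.73 ± 0.12. Tll1 was at 2.54 ± 0.944 CPM (SD, n = 4) with digit 1 and 9.22 ± 1.6 CPM (SD, n = 6) with digit 3.

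Of 25 matrix receptors, 1 was higher and 1 lower with FTY720 at an unadjusted p under 0.05 in edgeR, 8.0% beside 2.61% of protein-coding genes, and 1 was higher in DESeq2. With the digit in the model 5 of the 25 passed (3 higher, 2 lower), beside 14.1%, and in the digit 3 libraries 3 (1 higher, 2 lower), beside 7.95%. Itga2, a subunit of a collagen receptor with as few as 5 counts in a library, averaged 0.801 ± 0.266 CPM (SD, n = 6) in FTY720 mice and 0.415 ± 0.0936 CPM (SD, n = 4) in placebo mice, a log2 difference of 0.94 ± 0.36 (edgeR p = 0.0211, exact permutation p = 0.0143). Itgb4, a subunit of a laminin receptor, had a log2 fold change of -0.30 ± 0.14 (edgeR p = 0.0498, exact permutation p = 0.0524). Between the digits 9 of the 25 differed, 7 of them higher, which is 36.0% beside 30.0%, with the laminin receptor subunit Itga7 (1.09 ± 0.12), the integrin subunit Itgb8 (0.47 ± 0.12) and the syndecan Sdc1 (0.75 ± 0.21) leading by p.

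Of 25 further basement membrane partners none had an unadjusted p under 0.05 for FTY720 in edgeR or DESeq2, 3 were lower with the digit in the model, beside 8.45%, and none passed in the digit 3 libraries. Between the digits 9 differed (4 higher, 5 lower), 36.0% beside 30.0%, among them Frem1 (0.84 ± 0.15), the netrin Ntn4 (0.58 ± 0.11) and the matrilin Matn2 (-0.63 ± 0.12). Of 23 genes of matrix breakdown, 3 were lower with FTY720 in edgeR and in DESeq2 and none higher, beside 1.47% lower over protein-coding genes. When the digit was modelled, 4 of the 23 were lower, beside 8.45%, and in the digit 3 libraries 4 were lower, beside 5.0%, and 1 higher. The first 3 were Htra3, a serine protease, with a log2 fold change of -0.42 ± 0.15 (exact permutation p = 0.00952), Mmp14, a membrane-bound collagenase, with -0.28 ± 0.12 (exact permutation p = 0.0238), and Adamts1, a proteoglycan-cutting protease, with -0.41 ± 0.18 (exact permutation p = 0.0905). The unadjusted edgeR p of all 3 was also under 0.05 in the digit 3 libraries alone. Between the digits 8 of the 23 differed, 34.8% beside 30.0%, with Mmp24 higher (0.74 ± 0.10) and Mmp17 (-0.74 ± 0.12) and the metalloproteinase inhibitor Timp2 (-0.47 ± 0.08) lower. No gene of the 4 lists passed an adjusted p of 0.05 for FTY720 in edgeR.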

How the data were processed

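Brain RNA of 10 Slc20a2-HO mice was measured in 10 libraries. Per the authors' methods and processing notes, RNA was extracted with TRIzol, libraries were made with a NEBNext Ultra kit, bases were called with CASAVA 1.8, and reads were aligned to GRCm38 with HISAT2 2.0.5. The processing notes also name fastp, featureCounts 1.5.0-p3 and DESeq2 1.20.0. The annotation release and strand setting are not given in the sources used here. The deposited count table is not normalized and gives a whole-number count for each gene and library, and the FPKM values deposited by the authors scale those counts by gene length and a library total. Groups came from the treatment label, and the digit from the mouse names. The labels name separate mice, and all 45 pairs of libraries differed beyond sampling noise (chi-square per degree of freedom of 16.1 and above).

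Genes were kept by filterByExpr, scaled by TMM and tested on the whole table with edgeR 4.0.16 (quasi-likelihood, R 4.3.3), without a covariate for treatment and with treatment as a covariate for the digit, and Benjamini-Hochberg adjustment ran over all 17665 genes tested. The pipeline was tested on simulated data. CPM are scaled by the TMM library size. The standard error of a log2 fold change was taken from its F statistic (the fold change over the root of F). Exact permutation tests were two-sided, on log2 CPM (prior count 2), over all 210 divisions of the mice into 6 and 4.

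One gene of the family was counted and tested with the others but is not reported here. The members and lists were chosen with earlier results of these data known. Members were named when they had an unadjusted p under 0.05 for treatment, were among the 6 smallest adjusted p under 0.05 of their class for the digit, or were among the 3 most abundant of their class, with the partner chains of types I, IV, VI and IX and Fn1. From the 4 other lists, up to 3 genes per comparison were named by p. Of the 59 genes, 38 overlap another GENCODE M21 gene, 19 share exon bases with one and 4 share over 5% (Col4a3, Col9a3, Lamc3 and Nid2). Other settings tried were DESeq2 1.42.0 (Wald test), scaling by RLE or by the upper quartile, no filter, at least 10 counts in every library, limma-voom and limma on log2(FPKM + 0.1) and log2(FPKM + 1) (limma 3.58.1), removal of a gene length trend, alone or with a GC content trend, the leading digit of the mouse number or the digit as a covariate, part of the libraries, and each mouse left out.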

Additional observations from a re-analysis of the deposited data

Results flagged for a closer look

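In 4 of the 64 sets of values examined (32 genes in each treatment group), 1 mouse stood far from the others of its group, where chance gives about 1 in 20 sets. Col13a1 was at 0.418 CPM in the FTY720 mouse F3-908 and between 0.825 and 1.07 CPM in the other FTY720 mice. In the placebo mouse P1-623, Col18a1 was at 9.76 CPM against 20.5 to 21.9 CPM in the other placebo mice, Col27a1 at 8.06 CPM against 17.8 to 20.04 CPM, and Col4a6 at 0.786 CPM against 1.52 to 1.66 CPM. P1-623 is the only placebo mouse with digit 1, and the FTY720 mice with digit 1 had 7.07 to 7.79 CPM of Col18a1 and 6.84 to 8.09 CPM of Col27a1.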

How the results depend on the processing

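No value changed direction past a threshold in any alternative. The count of family genes with an unadjusted p under 0.05 for FTY720 was 4, and 2 with at least 10 counts in every library, which leaves fewer genes tested. It was also 2 after removal of GC content and gene length trends (Col6a1 higher, Col11a2 lower), the cause of which was not tested. Leaving out single mice gave 1 (without P3-612) to 7 (without F1-918), and 3 to 6 for the others, and the 11 remaining settings gave 3 to 6. Over all protein-coding genes 386 passed in the main fit, 209 to 856 over the mice left out and 307 to 2083 over those 11 settings. The count between the digits was 12 and 8 to 15 over all 23 alternatives, 8 without P1-623 or within the FTY720 mice, which leaves fewer samples, and 15 without F3-908 or without a filter. The cause of the rise was not tested. Its division was 9 higher and 3 lower, but 6 and 7 with the gene length trend removed, where the median of all genes moved to -0.07. Over all protein-coding genes 4441 were called in the main fit, 2301 without P1-623 and 2731 within the FTY720 mice. The others had 4474 without F3-908, 4639 without a filter and 5094 with the gene length trend removed. No correlation passed after adjustment on the FPKM scale either, and the class sums moved by less than the spread between libraries with library total scaling. No paired analysis was possible because the treatment groups share only 1 mouse number in the labels (612, in F3-612 and P3-612). Counts of 5 to 30 per library limit Col13a1, Col4a3, Col6a6 and Col9a1.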
